A study of Homo sapiens with 12 samples.

Results

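The MAGE cancer-testis family is a set of X-linked genes that share a MAGE homology domain. The MAGE-A, MAGE-B and MAGE-C genes are the type I members, which in healthy adults are transcribed mainly in germ cells of the testis and are otherwise silenced, in large part by methylation of their promoters. Many tumours transcribe some of them again, and several MAGE proteins bind RING ubiquitin ligases such as TRIM28 and change what these ligases act on. The members described here are the 10 genes MAGEA1, MAGEA4, MAGEA6, MAGEA10, MAGEA11, MAGEA12, MAGEB1, MAGEB2, MAGEC1 and MAGEC2, taken by name from the gene column of the arrays, which held 34423 gene names. They were represented by 13 of 50599 probes, with more than 1 probe for MAGEA6, MAGEC1 and MAGEC2.

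The arrays measured total RNA of Colo320DM, a human colorectal cancer cell line, labelled with Cy3. There were 6 clones selected with G418 after transfection, of which 3 carried the negative control plasmid, which encodes an artificial microRNA without a target, and 3 carried a TET1 knockdown vector. TET1 is an enzyme that oxidises 5-methylcytosine. The vectors carried one of a pair of artificial microRNAs, miTET1-1 in knockdown clones 1 and 2 and miTET1-2 in clone 3 by the study's clone numbers. RNA of each clone came from a mock-treated culture and from a culture kept for 72 h in 1 µM 5-aza-dC (5-aza-2'-deoxycytidine), which blocks DNA methyltransferases, so that 12 arrays formed 4 groups of 3. The groups are called mock control, mock knockdown, treated control and treated knockdown, and each clone is a single clone of one line, so that the errors describe clones of Colo320DM.

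Signals are given as log2 of the processed signal relative to the 75th percentile of the array, so that a level below this percentile is negative. "Well above background" is the call of the scanner software, and where a probe lacked it, its level is only known to be low. The share of probes with this call ranged from 45.66% to 52.87% over the arrays. The arrays came from 2 slides. Of the mock arrays, only control clone 3 was on slide 2, and of the treated arrays, only knockdown clones 1 and 3 were on slide 1. Mock and treated arrays of control clone 3 and of knockdown clones 1 and 3 therefore shared a slide, and those of the other clones did not. The brightest TET1 probe was at 4.48 ± 0.23 in mock control and 3.56 ± 0.04 in mock knockdown clones (SD, n = 3), a log2 difference of -0.93 (SE 0.19) that limma did not call (adjusted p = 0.276). After 5-aza-dC the difference was -0.67 (SE 0.36, limma adjusted p = 0.335). At the other TET1 probes, A_19_P00806490 and A_23_P322756, knockdown clones were lower by more, and limma called none of these differences. They were -1.35 and -1.08 in mock clones (limma adjusted p = 0.243 and 0.395). After 5-aza-dC they were -1.75 and -1.07 (limma adjusted p = 0.125 and 0.132). The study also measured knockdown efficiency by RT-qPCR. Of 6 markers of colorectal epithelium, 4 (KRT8, KRT18, CDX2 and MYC) were well above background on all 12 arrays, EPCAM on 4 mock and all 6 treated arrays and VIL1 on no mock array. Of 5 markers of other cells, PTPRC, COL1A1 and the germ cell gene DDX4 were well above background on all 12 arrays, the germ cell gene DAZL on none of the mock and all 6 treated arrays, and the endothelial gene PECAM1 on none. Over all clones EPCAM (3.76, SE 0.65, adjusted p = 0.0041) and COL1A1 (1.99, SE 0.35, adjusted p = 0.0051) rose after 5-aza-dC by limma, and DAZL was at least 17.9-fold higher (adjusted p = 8.79e-06). A test needed signal on at least 3 arrays, which DAZL had only on treated arrays, so its p-value supports nothing by itself. The part of these marker genes in the results below was not tested.

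The probes are 60 bases long and their positions are given on hg19. Those of MAGEA6 and MAGEA12 are shown because they overlap in sequence although they are assigned to different genes. The MAGEA6 probe A_23_P136870 (chrX:151870169-151870228, plus strand) and the MAGEA12 probe A_23_P252928 (chrX:151899912-151899971, minus strand) share an aligned stretch of 31 bases, of which 28 are identical, and the 3 that differ are in capitals. The strands of both genes are the opposite ones in the newer build used for the promoters.
MAGEA6 probe A_23_P136870: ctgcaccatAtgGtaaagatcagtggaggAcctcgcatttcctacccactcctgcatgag
MAGEA12 probe A_23_P252928: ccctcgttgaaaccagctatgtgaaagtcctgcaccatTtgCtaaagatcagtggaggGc

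Both MAGEA6 probes also list a transcript of MAGEA3, whose promoter window was identical to that of MAGEA6 at 300 of 300 bases, so that the signal named MAGEA6 cannot be told apart from MAGEA3. For the genes at or near background before treatment, the probe of MAGEB1 (chrX:30269128-30269187, plus strand) and the second probe of MAGEC2 (chrX:141290802-141290861, minus strand) are shown as examples of what was hybridised. This MAGEC2 probe was well above background on 1 mock array.
MAGEB1 probe A_23_P217341: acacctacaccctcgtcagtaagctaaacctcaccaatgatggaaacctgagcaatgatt
MAGEC2 probe A_33_P3264593: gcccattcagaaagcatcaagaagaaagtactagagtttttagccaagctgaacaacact

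Promoter windows of 300 bases, from 250 bases before to 50 bases after the annotated start, were taken from RefSeq (GRCh38.p14) and were found for 8 of the 10 genes, in 14 windows. MAGEA1 and MAGEA10 had no entry. The windows of the genes that rose after 5-aza-dC are shown beside that of MAGEA12, which was transcribed throughout. Capitals mark CCGGATG, a 7-base motif with the CCGGA core of the ETS factors and a CG inside it, which was searched on both strands.
MAGEB1 (second start; chrX:30246896-30247195, plus strand): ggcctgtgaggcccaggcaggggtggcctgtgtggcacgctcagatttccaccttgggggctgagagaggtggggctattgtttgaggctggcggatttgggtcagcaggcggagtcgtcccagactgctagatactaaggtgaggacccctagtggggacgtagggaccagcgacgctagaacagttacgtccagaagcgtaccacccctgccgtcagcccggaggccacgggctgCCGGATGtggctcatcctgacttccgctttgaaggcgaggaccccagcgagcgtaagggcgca
MAGEB2 (chrX:30215313-30215612, plus strand): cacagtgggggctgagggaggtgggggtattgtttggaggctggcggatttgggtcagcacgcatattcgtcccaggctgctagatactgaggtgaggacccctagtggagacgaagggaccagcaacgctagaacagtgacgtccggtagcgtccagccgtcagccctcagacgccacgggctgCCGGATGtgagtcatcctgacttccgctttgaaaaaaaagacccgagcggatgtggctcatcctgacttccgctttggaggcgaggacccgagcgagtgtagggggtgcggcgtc
MAGEC1 (chrX:141903644-141903943, plus strand): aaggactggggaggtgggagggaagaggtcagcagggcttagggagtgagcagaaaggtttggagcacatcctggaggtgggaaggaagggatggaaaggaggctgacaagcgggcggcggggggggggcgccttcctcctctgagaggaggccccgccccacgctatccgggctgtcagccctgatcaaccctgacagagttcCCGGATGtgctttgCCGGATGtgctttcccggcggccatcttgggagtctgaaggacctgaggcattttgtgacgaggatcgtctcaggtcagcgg
MAGEC2 (chrX:142205241-142205540, minus strand): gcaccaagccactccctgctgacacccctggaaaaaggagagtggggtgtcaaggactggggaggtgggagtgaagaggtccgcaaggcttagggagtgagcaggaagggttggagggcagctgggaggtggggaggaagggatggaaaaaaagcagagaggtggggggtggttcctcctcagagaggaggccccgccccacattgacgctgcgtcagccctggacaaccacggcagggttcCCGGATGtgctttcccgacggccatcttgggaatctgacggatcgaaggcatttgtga
MAGEA12 (first start; chrX:152733507-152733806, plus strand): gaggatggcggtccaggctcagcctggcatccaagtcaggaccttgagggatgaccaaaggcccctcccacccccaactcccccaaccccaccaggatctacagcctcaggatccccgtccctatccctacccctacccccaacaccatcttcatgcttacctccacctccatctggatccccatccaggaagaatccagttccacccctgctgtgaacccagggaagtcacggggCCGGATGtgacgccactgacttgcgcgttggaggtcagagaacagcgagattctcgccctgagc

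CCGGATG was present in 12 of the 14 windows and in 7 of the 8 genes, and it was found 2 times in that of MAGEC1. It was not found in the MAGEA6 window or in the first window of MAGEB1. Of 35116 promoter windows of 27305 genes, 2.64% held it, but the motif was picked after the sequences had been seen, so this share only describes how common it is. Of the other motifs searched on both strands, CCGGAAG was in none of the members' windows and in 10.3% of all windows, and GGGCGG, the SP1 core, was in 7 of the 14 windows against 45.0% of all. Each member window held between 1 and 21 CG pairs, where the median of all windows was 14. The window of MAGEB1 shown above held 18 CG, and those of MAGEB2 and MAGEA11 21 each, MAGEC1 14 and MAGEC2 10. The MAGEA12 window shown held 9, that of MAGEA6 19 and the 5 MAGEA4 windows 10 to 15, so that the ranges overlapped. A match to a motif is a description of letters and no evidence that a factor binds there.

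In mock-treated clones some MAGE genes had signal on every array and others lay at background. MAGEA1, MAGEA4, MAGEA6, MAGEA10 and MAGEA12 were well above background on all 6 mock arrays. MAGEB1 and MAGEC2 (probe A_23_P62099) were well above background on none, MAGEB2 and MAGEA11 on 1, mock control clone 1 in both cases, and MAGEC1 (A_23_P217178) on 4. After 5-aza-dC, MAGEB1, MAGEB2, MAGEC1 and MAGEC2 were well above background on all 6 arrays and MAGEA11 on 2. A pattern of at most 1 of 6 mock arrays and all 6 treated arrays was shown by MAGEB1, MAGEB2 and MAGEC2 (3 of 10 genes, by the probe with the highest mean), against 0.652% of all 50599 probes. Of the other type I MAGE genes on the array, 1 of 12 showed it. The members were chosen with earlier results of these data known, so their share is a description and supports nothing by itself. In these bulk samples, fewer cells with a transcript and less of it per cell cannot be told apart.

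**Figure D1:**
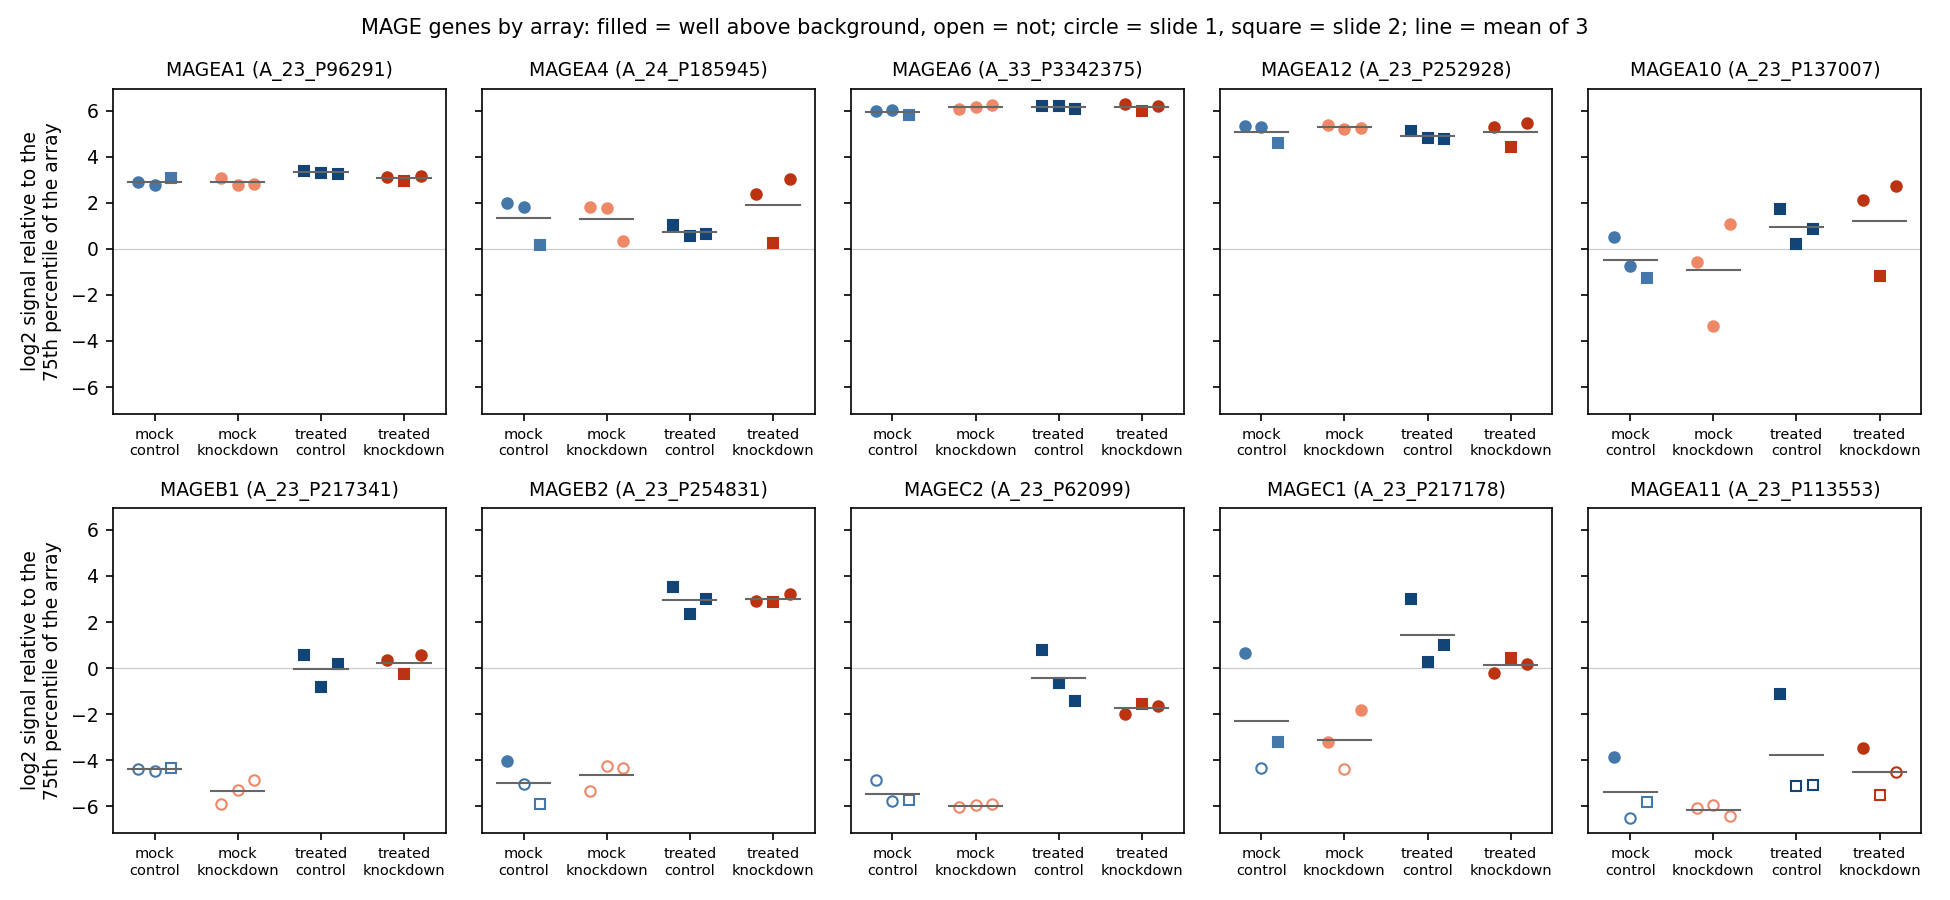
Log2 signal relative to the 75th percentile of the array (y) for the highest-mean probe of each MAGE gene in the 4 groups (x), 1 point per array, filled where well above background, with circles for slide 1, squares for slide 2 and lines for means of 3 arrays. MAGEB1, MAGEB2 and MAGEC2 moved from near background to well above it on all 6 treated arrays, while MAGEA6 stayed between 5.80 and 6.30.

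The MAGE-B genes gave the clearest shift. MAGEB2, a nucleolar and RNA-binding MAGE protein, and MAGEB1 lie next to each other on Xp21, with 31.4 kb between their probes. The MAGEB2 signal (probe at chrX:30237708-30237767, plus strand) in mock control clones 1, 2 and 3 was -4.05, -5.02 and -5.92, and the first alone was called above background. Mock knockdown clones 1, 2 and 3 had -5.33, -4.24 and -4.33, none with that call. After 5-aza-dC it was 3.52, 2.33 and 2.99 in control and 2.93, 2.87 and 3.22 in knockdown clones. All 6 treated arrays thus lay above all 6 mock arrays, and the treated control and treated knockdown clones overlapped. By limma, MAGEB2 rose in control clones (log2 difference 7.94, SE 0.53, adjusted p = 0.0011, n = 3 against 3). It rose likewise in knockdown clones (7.64, SE 0.33, limma adjusted p = 0.000226), where it was at least 124-fold higher. Since 1 mock control array had signal, no bound was set in control clones, and the fitted difference there is no measured fold. A test needed signal on at least 3 arrays, which MAGEB2 reached in both clone types only through treated arrays. Its p-values therefore support nothing by themselves.

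MAGEB1 was near the floor on all mock arrays, at -4.40, -4.46 and -4.32 in control clones 1, 2 and 3 and at -5.91, -5.30 and -4.84 in knockdown clones. After 5-aza-dC it was 0.56, -0.83 and 0.18 in control clones and 0.34, -0.27 and 0.55 in knockdown clones. Treated and mock arrays did not overlap in either clone type, and the treated arrays of the 2 clone types did. MAGEB1 was at least 17.2-fold higher in treated control clones (limma adjusted p = 0.0021) and at least 17.8-fold higher in treated knockdown clones (adjusted p = 0.000661). The floor of an array, which sets these bounds, was the lowest signal of any probe called well above background and lay between -4.38 and -3.56. MAGEB1 entered the test in both clone types only through treated arrays, so its p-values support nothing by themselves.

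MAGEC2, a partner of TRIM28, was measured by 2 probes whose starts lie 479 bases apart. At the brighter probe, A_23_P62099 (chrX:141290323-141290382, minus strand), mock control clones had -4.88, -5.79 and -5.72 and mock knockdown clones -6.02, -5.96 and -5.92, none well above background. Treated control clones 1, 2 and 3 had 0.80, -0.66 and -1.45, and treated knockdown clones had -1.99, -1.58 and -1.64. Here the treated groups did not overlap, with every treated knockdown clone below every treated control clone, but the difference of -1.30 (SE 0.55) was not called (limma adjusted p = 0.262). Treated knockdown clones 1 and 3 were on slide 1 and the other treated arrays on slide 2. The share of all probes with such a separation was not counted. MAGEC2 was at least 13-fold higher after treatment in control clones (adjusted p = 0.0074) and at least 4.63-fold higher in knockdown clones (adjusted p = 0.000284, both limma). At this probe it entered both tests only through treated arrays, so these p-values support nothing by themselves. The second probe, A_33_P3264593, was dimmer. It gave -6.36, -5.56 and -5.67 in mock and -1.14, -3.23 and -2.99 in treated control clones, which was at least 3.2-fold higher (limma adjusted p = 0.0265), a call lost with slide as a block (0.168). In that comparison it too entered the test only through treated arrays. In knockdown clones it gave -6.04, -3.53 and -6.38 after mock treatment and -3.05, -3.35 and -3.10 after 5-aza-dC, and limma did not call it (adjusted p = 0.425), except with clone and slide as blocks (0.0073). Mock knockdown clone 2 was the 1 mock array with signal at this probe, while the same array was not well above background at the brighter probe.

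MAGEC1, which lies 293.4 kb from MAGEC2 by their probes, was the member that differed most among untreated clones. At A_23_P217178 (chrX:140996897-140996956, plus strand), mock control clones 1, 2 and 3 had 0.66, -4.33 and -3.20, and mock knockdown clones had -3.22, -4.36 and -1.82. The second clone of each type was not well above background and the first control clone stood far above the others. The pooled SD among mock clones was 2.06, which was the 99.2nd percentile of the probes tested, where the median SD was 0.361. After 5-aza-dC the signal was 2.99, 0.28 and 1.02 in control clones and -0.20, 0.42 and 0.16 in knockdown clones. Each clone had a higher signal after treatment, by 1.99 to 4.78, but mock control clone 1 lay above 4 of the 6 treated arrays. Neither clone type alone passed the test, with 3.72 (SE 1.36, limma adjusted p = 0.155) in control and 3.26 (SE 0.62, limma adjusted p = 0.0658) in knockdown clones. Over all 6 clones MAGEC1 rose by 3.49 (SE 0.83, limma adjusted p = 0.0216). That call was lost with slide as a block (adjusted p = 0.0667), without mock knockdown clone 2 (adjusted p = 0.0528) and without treated control clone 1 (adjusted p = 0.0531). A call appeared in control clones without mock control clone 1 (5.20, limma adjusted p = 0.0359) and in knockdown clones without mock knockdown clone 3 (3.91, limma adjusted p = 0.0127). The second MAGEC1 probe, A_33_P3241831 (chrX:140994028-140994087), was well above background only in treated control clone 1, at -3.63, and was not tested.

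Control clone 1 also stood apart at MAGEA11, a coactivator of the androgen receptor (probe at chrX:148798090-148798149, plus strand). MAGEA11 was at -3.84, -6.51 and -5.83 in mock control clones and at -6.08, -5.93 and -6.42 in mock knockdown clones, where only control clone 1 was well above background. Treated control clones had -1.14, -5.13 and -5.06 and treated knockdown clones -3.48, -5.52 and -4.53, of which control clone 1 and knockdown clone 1 were well above background. Treated signal was nominally above mock signal in each clone, but 9 of the 12 values were at background and limma did not call the difference over all clones (1.63, SE 0.73, adjusted p = 0.156). Within each clone type, MAGEA11 had too few arrays with signal to be tested.

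MAGEA10 (probe at chrX:151303134-151303193, minus strand) was transcribed in all clones at levels that differed widely. Mock control clones had 0.53, -0.73 and -1.28, and mock knockdown clones -0.56, -3.34 and 1.08. Treated control clones had 1.75, 0.20 and 0.86, and treated knockdown clones 2.14, -1.19 and 2.73. The groups overlapped, knockdown clone 2 being lowest in both conditions and knockdown clone 3 highest, and the pooled SD among mock clones of 1.71 was at the 98.4th percentile. Within clones the signal was 0.94 to 2.70 higher after treatment in all 6. The unpaired test did not call it in control clones (1.43, SE 0.57, limma adjusted p = 0.176) or in knockdown clones (2.17, SE 1.41, adjusted p = 0.689). With the clone as a block, limma called MAGEA10 in knockdown clones (SE 0.26, adjusted p = 0.0332) and over all clones (1.80, SE 0.21, adjusted p = 0.0038), though not in control clones (adjusted p = 0.0656).

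The remaining MAGE-A genes were on before treatment. MAGEA6, another TRIM28 partner, had 6.0, 6.04 and 5.80 in mock control and 6.08, 6.18 and 6.23 in mock knockdown clones at its brighter probe A_33_P3342375 (chrX:151870745-151870804, plus strand). After 5-aza-dC it had 6.19, 6.20 and 6.06 in control and 6.30, 6.0 and 6.19 in knockdown clones. All mock knockdown and treated control arrays lay above all mock control arrays, by small margins. The pooled SD among mock clones was 0.104, and the differences after treatment were 0.20 (SE 0.16) and -0.00 (SE 0.19), which limma did not call. MAGEA1 (probe at chrX:152481710-152481769, minus strand), whose protein was an early tumour antigen, had 2.90, 2.79 and 3.07 in mock control and 3.09, 2.78 and 2.82 in mock knockdown clones. Treated control clones had 3.40, 3.29 and 3.27 and treated knockdown clones 3.13, 2.94 and 3.17. Every treated control clone lay above every mock control clone and above every treated knockdown clone. The difference between the treated clone types was not called (-0.24, SE 0.19, limma adjusted p = 0.468). For this and the other members, the share of all probes with 3 arrays wholly above 3 others was not counted. The mean difference after treatment was 0.40 in control clones (SE 0.16, limma adjusted p = 0.174). Without mock control clone 3 this became a call (0.48, limma adjusted p = 0.0394), but mock and treated control arrays then lay on different slides and 8608 probes in all were called. With slide as a block the difference was 0.25 (limma adjusted p = 0.486).

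MAGEA12 and the second MAGEA6 probe differed between slides rather than between the study's groups. At MAGEA6 probe A_23_P136870, mock control clones had 4.18, 4.21 and 2.75, mock knockdown clones 4.34, 4.20 and 4.14, treated control clones 3.04, 2.81 and 2.80 and treated knockdown clones 4.17, 2.48 and 4.26. All 7 arrays of slide 1 lay between 4.14 and 4.34 and all 5 of slide 2 between 2.48 and 3.04. MAGEA12 gave 5.32, 5.31 and 4.60 in mock control, 5.37, 5.21 and 5.25 in mock knockdown, 5.11, 4.82 and 4.77 in treated control and 5.29, 4.43 and 5.48 in treated knockdown clones. Its slide 1 arrays also lay above all slide 2 arrays. Such a separation was seen in 14.9% of all probes tested. In clones whose arrays shared a slide, treatment moved the second MAGEA6 probe by -0.17 to 0.12 and MAGEA12 by -0.08 to 0.23. In clones whose arrays were on different slides the same differences were -1.72 to -1.14 and -0.78 to -0.21. The correlation between the MAGEA6 probes was 0.41 over 12 arrays.

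MAGEA4 (probe at chrX:151092474-151092533, plus strand), a target of T cell therapies, followed the slide in part. Mock control clones had 1.97, 1.81 and 0.18, mock knockdown clones 1.83, 1.78 and 0.32, treated control clones 1.05, 0.54 and 0.63 and treated knockdown clones 2.37, 0.27 and 3.05. Its values on slide 2 ranged from 0.18 to 1.05, and those on slide 1 exceeded all of these apart from mock knockdown clone 3. The signal was higher after treatment by 0.45 to 2.73 in the 3 clones whose arrays shared a slide, and changed by -1.51 to -0.92 in the 3 others. The difference of -0.58 (SE 0.49, limma adjusted p = 0.465) in control clones turned to 0.56 (adjusted p = 0.334) with slide as a block. Without mock control clone 3, the 1 mock control array on slide 2, limma called MAGEA4 lower in control clones (-1.15, adjusted p = 0.0124), a comparison in which the remaining mock and treated arrays lay on different slides.

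**Figure D2:**
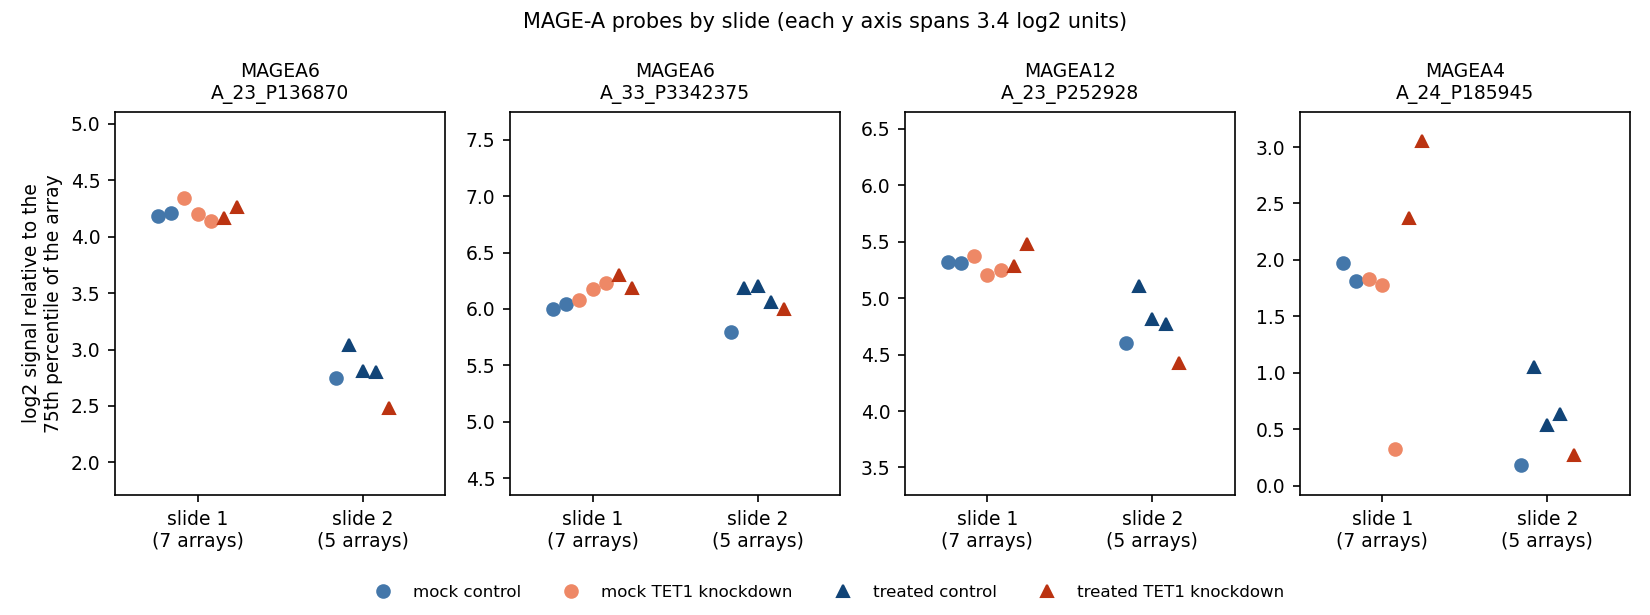
Log2 signal relative to the 75th percentile of the array (y) of 4 MAGE-A probes on slide 1 (7 arrays) and slide 2 (5 arrays), with circles for mock and triangles for treated arrays, coloured by group. MAGEA6 probe A_23_P136870 fell into 4.14 to 4.34 on slide 1 and 2.48 to 3.04 on slide 2, while the other MAGEA6 probe overlapped between slides.

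The comparison of treated with mock clones asked which genes 5-aza-dC raised. A gene was tested where its probe was well above background on at least 3 arrays of the comparison, and it was called at a limma adjusted p under 0.05 over all probes tested. In control clones 9 of the 10 genes were tested and 3, MAGEB1, MAGEB2 and MAGEC2, were called higher, where 3.84% of the 24632 probes tested were. In knockdown clones again 9 were tested and 3 were called higher, against 2.04% of 25385 probes. Over all clones MAGEC1 was added, which gave 4 of 10 genes against 7.29% of 27285 probes. No member was called lower in these 3 comparisons. MAGEB1 and MAGEC2, and in knockdown clones MAGEB2, had signal on treated arrays alone. In control clones MAGEB2 had signal on 1 mock array, fewer than the 3 arrays needed. In all 3 comparisons these genes could thus enter the test only through the group in which they were high. These counts therefore do not support a difference by themselves. Taken clone by clone, 7 of the 10 genes (MAGEA1, MAGEA10, MAGEA11, MAGEB1, MAGEB2, MAGEC1 and MAGEC2) had a higher signal after treatment in all 6 clones, against 12.7% of the 27285 probes tested, a share to which the same limit of the filter applies. The median difference over the 10 genes was 1.71, and that over all probes tested was -0.05. As the members were chosen with earlier results of these data known, these values only describe them.

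**Figure D3:**
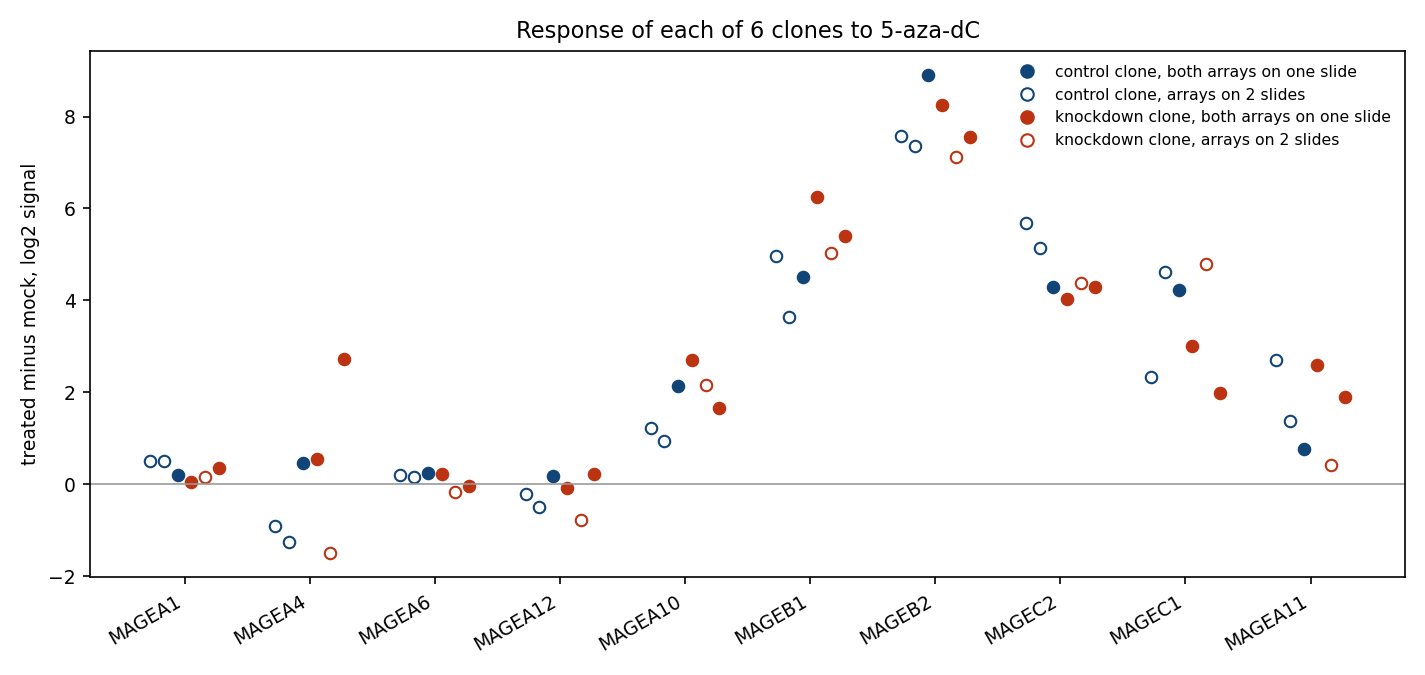
Treated minus mock log2 signal (y) of each of the 6 clones for each MAGE gene (x, highest-mean probe), blue for control and red for knockdown clones, filled where both arrays of the clone were on one slide. MAGEB2 lay between 7.11 and 8.91 in all clones, whereas MAGEA4 was above 0 in the 3 clones with both arrays on one slide and below 0 in the others.

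The clones with both arrays on one slide gave responses measured within a slide. In these clones MAGEB2 was 7.56 to 8.91 higher after treatment, MAGEB1 4.51 to 6.25, MAGEC2 4.03 to 4.29, MAGEC1 1.99 to 4.22 and MAGEA10 1.65 to 2.70. The clones with arrays on both slides gave 7.11 to 7.57, 3.63 to 5.04, 4.38 to 5.68, 2.33 to 4.78 and 0.94 to 2.15, in the same order of genes. Differences of the genes at or near background in mock clones rest on those low values and show order rather than size. With slide as a block, MAGEB1 and MAGEB2 remained called in control clones (limma adjusted p = 0.0326 and 0.0089) and MAGEC2 did not (0.0656), where 1.74% of probes were called higher. In knockdown clones MAGEB1, MAGEB2 and MAGEC2 remained called with this block (adjusted p = 0.0026, 0.0019 and 0.0013 by limma), against 1.81% of probes. Over all clones they also remained called with it, against 5.37%. The limit of the filter given above applies to these counts as well.

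With the clone as a block the calls grew. In control clones MAGEC1 joined (3.72, limma adjusted p = 0.0267), giving 4 genes against 4.48% of probes called higher, while the second MAGEC2 probe was lost (adjusted p = 0.0538). In knockdown clones MAGEA10 joined, giving 4 genes against 2.34%. Over all clones MAGEA10 and MAGEA11 (adjusted p = 0.0298) joined, giving 6 of 10 genes against 10.0%. The limit of the filter applies to these counts too, and MAGEA11 was tested on signal from 1 mock and 2 treated arrays. The counts therefore support nothing by themselves. With clone and slide both as blocks, no member was called in control clones, where no probe at all was called and 3804 had an unadjusted p under 0.05 in limma. The adjusted p of MAGEB1, MAGEB2 and MAGEC2 was then 0.106, 0.0722 and 0.0727. In knockdown clones the call of MAGEA10 was lost with both blocks (0.0729), and over all clones those of MAGEA11 (0.13) and MAGEC1 (0.0626) were lost while that of MAGEA10 was kept (0.0219, limma).

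**Figure D4:**
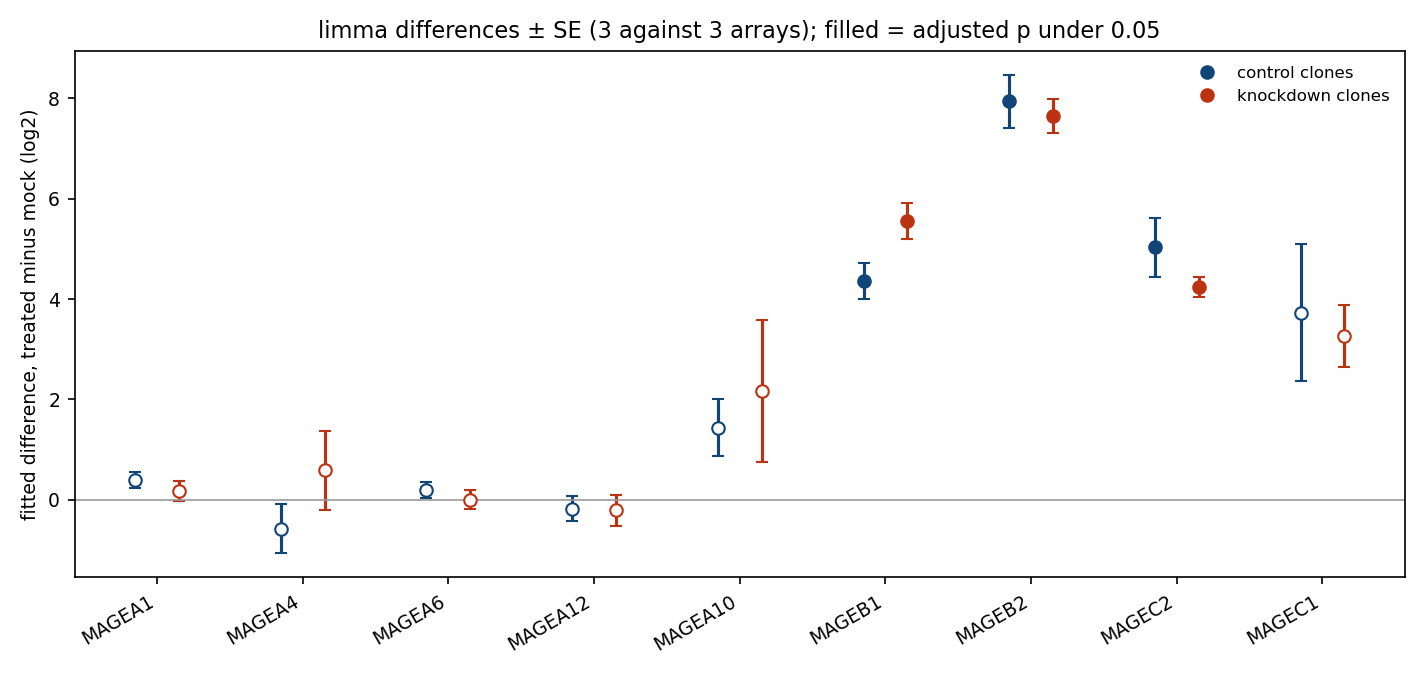
Fitted treated minus mock differences in log2 signal with SE (y) for 9 MAGE genes (x), in control (blue) and knockdown (red) clones, 3 against 3 arrays, filled where the limma adjusted p was under 0.05. MAGEB1, MAGEB2 and MAGEC2 were called in both clone types, and as their mock signal was at or near background the heights are no measured folds.

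The comparison of knockdown with control clones, which uses the same arrays as the comparisons above, asked whether reduced TET1 altered the family. In mock clones 6 of the 10 genes were tested and none was called, where limma called 0.137% of 24751 probes in either direction. Their differences ran from -0.84 (MAGEC1, SE 1.33) to 0.22 (MAGEA6, SE 0.17), and 2763 of all probes but none of these 6 genes had an unadjusted p under 0.05. The MAGEC1 difference turned to 0.63 without mock control clone 1. After 5-aza-dC 9 genes were tested and none was called, against 0.0960% of 24992 probes in either direction, with 4811 probes at an unadjusted p under 0.05 and no member among them. The lowest differences were those of MAGEC1 (-1.30, SE 0.67, limma adjusted p = 0.317) and MAGEC2, and the highest was that of MAGEA4 (1.16, SE 0.68, limma adjusted p = 0.367). Treated knockdown clones 1 and 3 were on slide 1 and the other 4 treated arrays on slide 2, where the MAGEA4 difference was -0.47 and that of MAGEA10 -2.13, with 1 knockdown clone against 3 control clones. Without treated knockdown clone 2, which left the clone types on different slides, limma called MAGEA4 higher in knockdown clones (1.97, adjusted p = 0.00796).

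The interaction asked whether the response to 5-aza-dC differed between clone types. All 10 genes were tested and none was called, where limma called 0.0367% of 27285 probes and 672 had an unadjusted p under 0.05. The MAGEB1 response was larger by 1.19 in knockdown clones (SE 0.54, unadjusted p = 0.05, adjusted p = 0.9995), and its mock values were at background in both types. MAGEC2 differed by -0.80 (SE 0.67), MAGEB2 by -0.30 (SE 0.67), MAGEC1 by -0.46 (SE 1.65) and MAGEA10 by 0.73 (SE 1.69). These errors leave room for differences of more than 1 log2 unit in most members, and missing the threshold does not show that the clone types responded alike.

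Other type I MAGE genes, listed as the remaining MAGE-A, MAGE-B and MAGE-C genes, were on the array in 12 of 16 cases. Over all clones 7 could be tested and 5 rose, where 7.29% of all probes did. Of these 5, MAGEA8, MAGEB6, MAGEB10 and MAGEB16 reached the 3 arrays needed for a test only through treated arrays, so the count supports nothing by itself. MAGEA8 (5.03, SE 0.58, limma adjusted p = 0.000279) was well above background on 1 mock and all 6 treated arrays. MAGEA9, well above background on 4 mock and 6 treated arrays, rose by 4.15 (SE 0.94, limma adjusted p = 0.0175). MAGEB10 and MAGEB16, with no mock array well above background, were at least 2.29-fold and 1.24-fold higher (limma adjusted p = 0.000804 and 0.007). MAGEB6 was well above background on 1 mock and 4 treated arrays (limma adjusted p = 0.0079). The fitted difference of MAGEA8 likewise rests on background values in mock clones and is no measured fold. The call of MAGEB6 was lost with normexp background correction (adjusted p = 0.112), and those of MAGEB10 and MAGEB16 with clone and slide as blocks (0.0719 and 0.119, limma). MAGEA2B, whose near-identical copy MAGEA2 may share its probe, was on throughout, at 6.62 in mock and 6.77 in treated clones, and was not called (0.14, SE 0.11, limma adjusted p = 0.396). MAGEB4, MAGEB18 and MAGEC3 were well above background on no array, and MAGEB3 and MAGEB5 on 1 treated array each.

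The type II MAGE genes, which are widely expressed in normal tissues, were on the array in 11 of 12 cases. Over all clones 8 were tested, 1 rose and 1 fell, with a median difference of 0.07. Of all 27285 probes tested, limma called 1989 higher and 1623 lower. TRO (trophinin) was well above background on no mock and all 6 treated arrays and at least 4.43-fold higher (limma adjusted p = 0.000517), and its second probe had no signal on any array. TRO thus entered the test only through treated arrays. MAGEE1 fell by 0.73 on the log2 scale (SE 0.18, limma adjusted p = 0.0227), a call lost with slide as a block (adjusted p = 0.11) and without any 1 of mock control clones 1 and 2, mock knockdown clone 2 and treated control clones 1 and 3 (adjusted p = 0.0523 to 0.062). Of 13 partners of MAGE proteins and their substrates, 10 were tested and 1, the deubiquitinase USP7, was called at its highest-mean probe (-0.83, SE 0.23, limma adjusted p = 0.0397). Over all probes the calls in either direction were 3612 of 27285. The USP7 call was lost with slide as a block (adjusted p = 0.205) and without any 1 array apart from mock control clone 3, mock knockdown clone 1 and treated knockdown clone 3 (limma adjusted p = 0.0589 to 0.0943). The dimmer of the 2 probes of HUWE1, a ubiquitin ligase, was called lower (-0.92, limma adjusted p = 0.0082) and the brighter was not (-0.38, adjusted p = 0.089). TRIM28 was at 4.34 in mock and 4.06 in treated clones, and its difference of -0.28 (SE 0.25) was not called.

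Among 8 factors that act at MAGE promoters, 7 were tested and 3 were called over all clones. Of all 27285 probes tested, limma called 3612 in either direction. CTCFL, a germline paralog of CTCF known to bind cancer-testis promoters, rose by a fitted 4.64 (SE 0.93, limma adjusted p = 0.01). This is no measured fold since only 1 mock array was well above background, against all 6 treated arrays. CTCFL thus entered the test only through treated arrays, and the count of 3 supports nothing by itself. The mock array with CTCFL signal was a knockdown clone at -0.14, above all treated control clones (-2.16 to -1.55). CTCFL was called in control clones (4.39, SE 0.29, limma adjusted p = 0.0011). In knockdown clones it was not (4.88, SE 1.65, limma adjusted p = 0.419). DNMT3B, a de novo DNA methyltransferase, rose by 1.31 (SE 0.18, adjusted p = 0.0012) and CTCF fell by 0.52 (SE 0.14, adjusted p = 0.0346, both limma). The DNMT3B rise was called in control clones (1.27, limma adjusted p = 0.0137) and not in knockdown clones (1.35, limma adjusted p = 0.147). A second DNMT3B probe was well above background on no array. The CTCFL call was lost with clone and slide as blocks (adjusted p = 0.067), and the CTCF call with slide as a block (0.134) and without any 1 of mock control clones 1 and 2, mock knockdown clones 1 and 2 and the 3 treated control clones (limma adjusted p = 0.0642 to 0.0928). Of 3 DNMT3A probes, a dim one was called higher (1.30, limma adjusted p = 0.0028) and the brightest was not (0.22, adjusted p = 0.679). DNMT1, the maintenance methyltransferase that 5-aza-dC traps, was at 3.55 in mock and 4.04 in treated clones and was not called (0.50, SE 0.38, limma adjusted p = 0.379). ETS1 was at background on all 12 arrays.

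The surroundings of the members on chromosome X were mixed. Within 200 kb of a member probe lay probes of 24 other genes, of which 13 were tested over all clones at their highest-mean probe and 3 rose. Of all 27285 probes tested, 7.29% were called higher. Of the 3, XLOC_l2_015849 and NR0B1 entered the test only through treated arrays, so the count supports nothing by itself. The uncharacterised transcript XLOC_l2_015849 was not well above background on any mock array and lay between 3.65 and 5.45 on treated arrays, at least 360.0-fold higher (limma adjusted p = 3.12e-08). Its probe is 179.4 kb from that of MAGEA1, a gene that was on throughout. NR0B1, a nuclear receptor gene 53.5 kb from MAGEB1, was at least 7.45-fold higher (adjusted p = 2.28e-07 by limma) at one probe, and its other probe was not called (0.45, SE 0.32). The dimmer of the 2 probes of LOC100507199, 19.6 kb from that of MAGEA4, was at least 1.55-fold higher (limma adjusted p = 0.000938), and the brighter was not called (0.36, adjusted p = 0.657). The dimmer probe also entered the test only through treated arrays. NSDHL, an enzyme of cholesterol synthesis, rose by 0.52 (SE 0.13, limma adjusted p = 0.0257), a call lost with the array median as the scale (0.28, adjusted p = 0.175), with slide as a block (0.0879) and without any 1 of mock control clones 1 and 2, mock knockdown clone 2, treated control clone 2 and treated knockdown clone 3 (limma adjusted p = 0.0505 to 0.0728). CSAG1, another cancer-testis gene 9.3 kb from MAGEA12, was on throughout, at 5.30 to 5.76 in mock and 5.08 to 5.54 in treated clones.

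Over the 12 arrays the correlation was 0.98 between MAGEB1 and MAGEB2, 0.96 between MAGEB2 and MAGEC2 and 0.95 between MAGEB1 and MAGEC2, where all 3 genes separate mock from treated arrays. MAGEC1 correlated with these 3 genes at 0.80 to 0.87 and MAGEA1 at 0.69 to 0.80. MAGEA4 and MAGEA12 correlated at 0.81, and both differed between slides in full or in part. MAGEA6, at its brighter probe, correlated with no other member above 0.53. The mean over the 10 genes lay between -1.32 and 0.02 on mock and between 0.84 and 2.42 on treated arrays, with control clone 1 highest in both conditions. Genes outside the family whose signal was most like this mean, of 15467 genes compared over 12 arrays, were TUBA3C (r = 0.981), S100A16 (0.976), NXF5 (0.970), VAMP8 (0.969) and KRT19 (0.966). All 5 were higher after treatment in all 6 clones. As mock and treated arrays form separate clusters, these values mainly reflect the distance between them.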

How the data were processed

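Total RNA of 12 cultures was hybridised to one-colour Agilent 60K arrays. The authors extracted each spot's intensity with Feature Extraction 10.7.3.1, and the deposited scanner files hold it background-corrected and not normalized between arrays. The authors' series values matched it within 0.497%. Their later GeneSpring normalization is not given in the sources used here. Control spots and 268 to 395 outlier spots per array were left out, and spots of a probe were averaged. The deposited intensity was put on a log2 scale and centred on the 75th percentile of the array (240.7 to 359.0). Probes well above background in at least 50% of their spots on at least 3 arrays of the comparison were tested, and a gene was judged by its highest-mean probe.

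The fits used lmFit and eBayes of limma 3.58.1 (R 4.3.3) with Benjamini-Hochberg adjustment, each comparison of 2 groups on its own 6 arrays and the others on all 12, after tests on simulated data. A bound sets the bright group's mean against the floor of the dim arrays, or the probe's own signal where that was higher. Clone numbers pair mock with treated arrays per the labels, and their deviations correlated at 0.213 to 0.316 (control) and 0.428 to 0.524 (knockdown). Numbers shared between clone types pair nothing. The number of arrays limits the precision.

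Named were all members, called genes of 4 lists, called neighbours within 200 kb and the 5 genes most like the members' mean. TRIM28, DNMT1, ETS1, CSAG1, HUWE1, DNMT3A, LOC100507199, the markers and MAGE genes that were not called were added after their values were seen. Members and lists were chosen with earlier results of these data known. Alternatives changed the background correction, scale, filter, value table, outlier spots, probe choice, blocks, arrays and test (the methods' t-test). No hg19 annotation was used, so exons were not assigned.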

Additional observations from a re-analysis of the deposited data

How the results depend on the processing

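Main counts of called MAGE genes were 3 (control clones), 3 (knockdown clones), 4 (all clones) and 0 in the other comparisons. They became 0 in all 3 treatment comparisons when a probe had to be well above background on every array. The genes at or near background in mock clones were then not tested. With no filter on dim probes, the same genes as in the main setting were called in these 3 comparisons. The mock values of MAGEB1, MAGEB2 and MAGEC2 still lay at or near background there. With replicate block and slide together the count was 0 in control clones. Leaving out 1 array gave 1 to 5 in control clones, 0 to 4 in knockdown clones, 3 to 4 over all clones, 0 to 1 between treated clones and 0 to 0 in the mock comparison and the interaction. Within a clone type the low counts came without a treated array, which leaves MAGEB1 and MAGEC2 (and, in knockdown clones, MAGEB2) on 2 arrays and untested. Over all clones the count of 3 came without mock knockdown clone 2 or treated control clone 1. MAGEC1 was then tested and missed the threshold (limma adjusted p = 0.0528 and 0.0531). With the replicate block alone the counts were 4, 4 and 6. The methods' t-test kept MAGEB1 and MAGEB2 in control clones but not MAGEC2 (adjusted p = 0.0709). It called 358 probes in control clones after Benjamini-Hochberg and 5684 before.

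Directions turned only where differences were not called. In control clones MAGEA4 went from -0.58 to 0.56 (slide as a block), 0.45 (replicate block and slide) and 0.81 (all 12 arrays with slide), MAGEA6 to -0.01 (array median) and MAGEA12 to 0.30, 0.17 and 0.38 under the 3 slide settings. In knockdown clones MAGEA1 went to -0.08 (array median), MAGEA12 to 0.11, 0.08 and 0.07 under the slide settings and -0.42 to 0.11 without 1 array, and MAGEA6 to 0.06 (normexp), 0.05 (quantile), 0.08, 0.09 and 0.07 (slide settings) and -0.07 to 0.08 without 1 array. Over all clones MAGEA4 went to -0.24 (array median) and -0.28 to 0.41 without 1 array, MAGEA6 to -0.14 (array median) and MAGEA12 to 0.22 and 0.15 (slide settings). MAGEC1 between mock clones ranged from -1.86 to 0.63 without 1 array. Between treated clones MAGEA4 went to -0.47 and -0.23 and MAGEA10 to -2.13 and -1.31 with slide, and MAGEA10 to between -0.47 and 1.5 without 1 array. The cause was not tested.

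Centring on the array median shifted the median of all probes to -0.23 (control), -0.35 (knockdown) and -0.29 (all clones). It moved calls over all clones from 1989 higher and 1623 lower to 1700 and 6850 (normexp 1852 and 2692, quantile 1912 and 2337), and in control clones from 945 and 338 to 887 and 1650 (normexp 788 and 470, quantile 904 and 562). In control clones 1283 probes were called, 8608 without mock control clone 3, 32 to 83 without a treated clone and 513 with slide as a block. In knockdown clones 520 became 17 to 46 without a treated clone. Signal over background limits the genes at background in mock clones to bounds.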
